A study of Mus musculus with 4 samples.

Results

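NSCL61, a mouse line of glioma-initiating cells derived from neural stem cells, was compared with NSC, the line labelled as neural stem cells, across the mouse microRNAs (miRNAs) of an Agilent array. The comparison takes 2 of the 4 arrays of the series, picked by their cell line labels, and all 1023 mouse miRNAs on them. Of these miRNAs, 245 were measured, that is, well above background in at least 1 of the lines. NSCL61 stands for the tumour-initiating state and NSC for the cell type it was derived from. Both were grown in culture and gave total RNA, of which 100 ng was labelled with the dye Cy3 for each array. The labels name no genotype, strain, age, treatment or passage for either line. In published work lines with the name NSCL61 were made by putting an oncogenic HRas into neural stem cells that lack p53, and the labels do not say whether the NSC array holds cells without p53 too. Each line is 1 sample on 1 array, and the labels do not say whether NSCL61 is a single clone. The remaining arrays, from OPCL61 and its precursor OPC (oligodendrocyte precursor cells), serve for scaling and for values set side by side.

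A miRNA is a short RNA, cut as 1 arm from a hairpin, that guides Argonaute proteins to messenger RNAs and lowers their translation and stability. Pairing rests mainly on the seed, bases 2 to 8 from the 5′ end, so miRNAs with the same seed share many predicted targets, and miRNAs encoded close together are often cut from the same primary transcript. Neural stem cells are known for miR-9 and rising amounts of let-7 and miR-125 as they mature, while gliomas are known for high miR-21 and low miR-124, miR-128 and miR-7.

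The mature sequences below are those on which the results turn, from RefSeq on GRCm38.p6, written 5′ to 3′ with the seed in capitals. The first set holds miRNAs that were higher in NSCL61, with the 3 miR-29 members placed together because they share the seed AGCACCA.
miR-29a-3p: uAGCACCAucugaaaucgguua
miR-29b-3p: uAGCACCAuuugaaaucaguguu
miR-29c-3p: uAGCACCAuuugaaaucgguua
miR-21-5p: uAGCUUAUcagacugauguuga
miR-31-5p: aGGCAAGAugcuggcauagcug
miR-221-3p: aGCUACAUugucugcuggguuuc
miR-222-3p: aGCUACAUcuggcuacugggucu
miR-23a-3p: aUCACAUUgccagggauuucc
miR-24-3p: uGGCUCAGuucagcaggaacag
miR-27a-3p: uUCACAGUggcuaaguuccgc
miR-96-5p: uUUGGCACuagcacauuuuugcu
The second set holds miRNAs that were lower, both arms of the miR-9 hairpin and the miR-181 family with its seed ACAUUCA.
miR-9-5p: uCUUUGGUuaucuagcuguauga
miR-9-3p: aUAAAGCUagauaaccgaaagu
miR-181a-5p: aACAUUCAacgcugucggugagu
miR-181b-5p: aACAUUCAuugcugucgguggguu
miR-181d-5p: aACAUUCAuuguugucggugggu
The third set holds members of a seed group that went different ways, and 2 neighbouring products of the miR-3102 hairpin.
let-7a-5p: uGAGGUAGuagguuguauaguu
let-7c-5p: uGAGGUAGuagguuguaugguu
let-7e-5p: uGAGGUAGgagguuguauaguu
miR-99a-5p: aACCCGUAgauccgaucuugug
miR-99b-5p: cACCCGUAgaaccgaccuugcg
miR-100-5p: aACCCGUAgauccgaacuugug
miR-130a-3p: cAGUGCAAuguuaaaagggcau
miR-130b-3p: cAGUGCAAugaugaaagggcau
miR-3102-5p: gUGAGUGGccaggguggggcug
miR-3102-5p.2-5p: gGUGGUGCaggcaggagagcc

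In NSCL61, 228 miRNAs were well above background, against 170 in NSC. Both lines shared 153 of them, 75 were measured in NSCL61 only and 17 in NSC only. Any probe of a miRNA could pass, while its signal is that of its brightest probe, so this split is uncertain near the lowest measurable signal. For example, miR-877-3p was measured in NSCL61 only, with 15.4 units in NSCL61 and 16.6 units in NSC. The NSCL61 array was the brighter one, with a summed signal of 251354 units over the measured miRNAs, against 78035 units on the NSC array. Signals are the scanner software's background-subtracted units, and changes are log2 differences of NSCL61 over NSC after each array was divided by its 75th percentile over probes measured on all 4 arrays, which took 1.95 log2 units off the NSCL61 side. A miRNA measured in both lines counted as changed when its levels were 2-fold or more apart and the gap exceeded 2 standard errors over spots. Where 1 line was below background the fold is a lower bound, written "at least", set against the lowest measurable level. A bound of 2-fold or more then sufficed. With 1 array per line no test was possible, SDs are over the spots of an array, and lower RNA per cell cannot be told apart from fewer cells of a kind.

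By this count 29 of the 245 measured miRNAs (11.8%) were higher in NSCL61 and 95 (38.8%) were lower. The median over the 153 miRNAs measured in both lines was −1.03, so that a typical miRNA lay below 0 under this scaling, and it was 0.93 without any scaling, where 120 miRNAs (49.0%) were higher and 17 (6.94%) lower. Calls were also counted that kept their direction and passed 2-fold under 5 scalings (75th percentile over shared probes, over all probes, median, quantile, and none). All 29 higher miRNAs (11.8%) and 17 of the lower ones (6.94%) did so. For the rises this was fixed in advance except under quantile normalization. The main scaling took the most off the NSCL61 side, 1.95 against 1.29 with the median, 0.03 over all probes and 0 without scaling. The 17 lower miRNAs are likewise those that were lower without scaling. The other 78 lower miRNAs were within 2-fold of equal without scaling, and 34 of the 95 had a change above 0 there. The 5 positive control probes measured on all arrays differed by 0.99 on average before scaling, less than the 1.95 taken off. With limma's normexp background correction, which adds an offset that shrinks the changes of dim miRNAs, 14 of the 29 higher miRNAs still counted. Among those that no longer did, miR-29c-3p came to 0.78, miR-7a-5p to 0.89, miR-99b-5p to 0.35 and miR-690 to 0.40, and the rest were bounds.

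**Figure D1:**
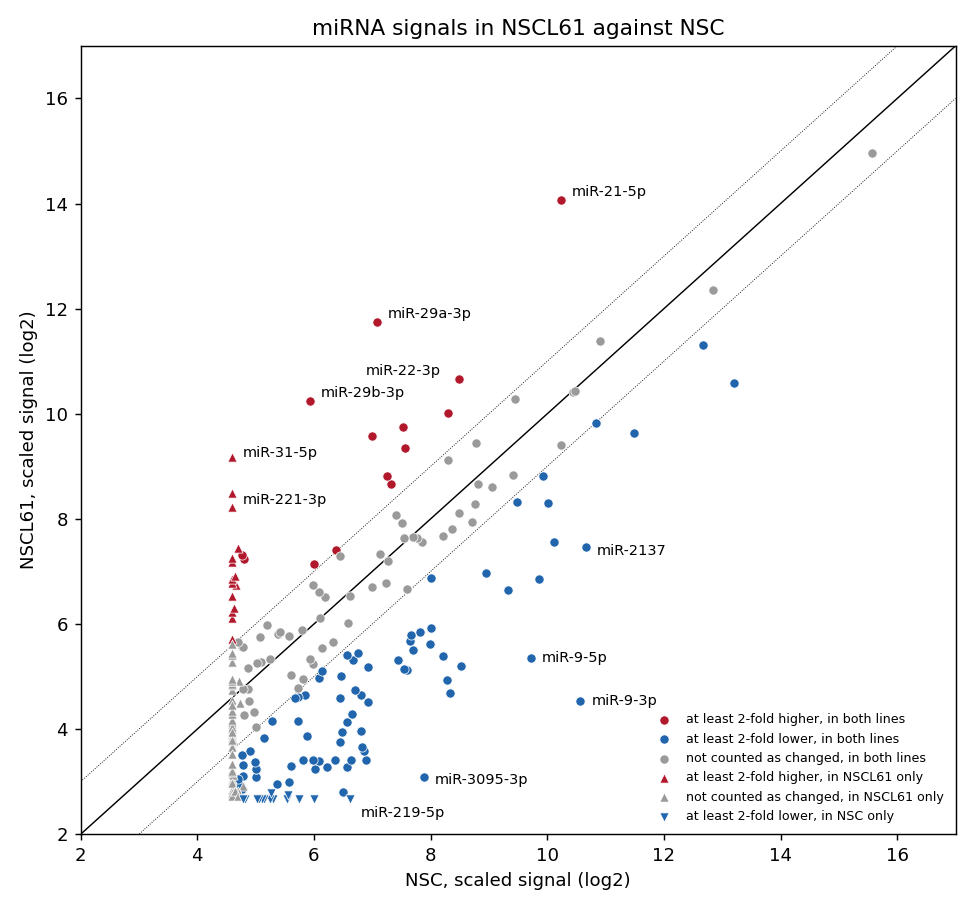
Scaled log2 signal of each of the 245 measured miRNAs in NSCL61 (vertical axis) and NSC (horizontal axis), with miRNAs below background drawn at their measured or lowest measurable level. The solid line marks equal levels and the dotted lines a 2-fold difference: miR-29a-3p and miR-21-5p lie far above it, and miR-9-3p and miR-9-5p far below.

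The largest rise of a miRNA measured in both lines was that of miR-29a-3p, and 3 of the 4 measured members of the miR-29 family were higher. The share higher over all measured miRNAs was 11.8%. The miR-29 family is known for repressing messenger RNAs of collagens and other matrix proteins and of DNA methyltransferases. Spots of miR-29a-3p had 9340 ± 438 units in NSCL61 (SD, n = 19 spots), against 94.5 ± 5.60 units in NSC (n = 20), a change of 4.67 after scaling. Its spots ran between 8240 and 10100 units on the NSCL61 array and between 84.4 and 106 units on the NSC array, so the arrays did not overlap. For miR-29b-3p the signal was 3310 ± 107 units in NSCL61 and 42.9 ± 5.94 units in NSC, a change of 4.33. For miR-29c-3p it was 407 ± 8.98 units in NSCL61 and 19.3 ± 2.45 units in NSC, a change of 2.43. The fourth member, miR-29b-1-5p, is the other arm of a miR-29b hairpin and was measured in NSCL61 only, at 72.9 units, against 2.52 units in NSC. Summed over the measured members, the family gave 13100 units in NSCL61 and 157 units in NSC, and its median change of 4.33 compares with −1.03 over all miRNAs. RefSeq places miR-29a at chr6:31062673-31062694 and 1 copy of miR-29b beside it at chr6:31063025-31063047, both on the minus strand and outside any other annotated gene. A second copy of miR-29b, at chr1:195037091-195037113, lies next to miR-29c at chr1:195037600-195037621, within the span of A330023F24Rik. The array does not separate the 2 copies of miR-29b.

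Among miRNAs known to be abundant in gliomas, miR-21-5p, which represses Pdcd4, had 46500 ± 1720 units in NSCL61 (n = 18) and 841 ± 31.3 units in NSC (n = 19), a change of 3.84. Its locus, chr11:86584120-86584141 on the minus strand, lies within the span of Vmp1. The other arm of the hairpin, miR-21-3p, was measured in NSCL61 only, at 45.1 units, against 0.908 units in NSC. miR-221-3p and miR-222-3p, which repress the cell cycle inhibitor Cdkn1b, were measured in NSCL61 only. miR-221-3p had 977 ± 21.2 units in NSCL61 and 8.75 ± 3.41 units in NSC, at least 14.1-fold higher. miR-222-3p had 203 ± 7.24 units in NSCL61 and 0.198 ± 2.24 units in NSC, at least 2.92-fold higher. miR-10b-5p, which lies in a Hox cluster and is high in human glioma, had 188 units in NSCL61 and 2.49 units in NSC, at least 2.71-fold higher, and was the 1 measured miRNA of 9 on the array from the Hox clusters. Of 16 measured miRNAs on a textbook list of those raised in glioma, 7 were higher in NSCL61 and 2 were lower, with a median of −0.17 over the 6 measured in both lines, beside 11.8% higher and 38.8% lower over all measured miRNAs. Without scaling 13 of the 16 were higher and 0 lower, with a median of 1.79. The list's remaining members included miR-155-5p at −0.03, miR-210-3p at 0.85 and miR-26a-5p at −0.31, none of which counted as changed.

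miR-31-5p had the largest bound. It had 1560 ± 57.8 units in NSCL61 (n = 20) and 1.2 ± 1.78 units in NSC (n = 15), at least 22.5-fold higher, and none of its NSC spots was well above background. The other arm, miR-31-3p, had 392 units in NSCL61 and 1.09 units in NSC, at least 5.65-fold higher. The mature miR-31-5p lies at chr4:88910614-88910635 on the minus strand, within the span of Gm49890. A cluster on chromosome 6 known from sensory organs was also measured in NSCL61 only, as were 75 of all 245 measured miRNAs. Its miR-182-5p had 254 units in NSCL61 and −1.34 units in NSC, at least 3.65-fold higher. Beside it, miR-96-5p had 807 units in NSCL61 and 2.57 units in NSC, at least 11.6-fold higher. For miR-183-5p the signals were 315 units in NSCL61 and −1.05 units in NSC, at least 4.53-fold higher. miR-183-3p, from the same cluster, was at 40.8 units in NSCL61 and −1.57 units in NSC and did not reach a 2-fold bound.

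The paralogous clusters that encode miR-23, miR-24 and miR-27, 1 on chromosome 8 and 1 on chromosome 13, are known from vascular and cardiac cells. Each of their 5 measured members was higher, beside 11.8% higher over all measured miRNAs. miR-24-3p had 2080 ± 53.1 units in NSCL61 and 89.4 ± 2.66 units in NSC, a change of 2.59. miR-27a-3p had 2320 ± 56.4 units in NSCL61 and 129 ± 6.24 units in NSC, a change of 2.22, and miR-23a-3p had 2790 ± 63.7 units in NSCL61 and 221 ± 8.87 units in NSC, a change of 1.70. miR-24 has a copy in each cluster, and the array does not separate the copies. The miR-23 and miR-27 members of the chromosome 13 cluster lay just below the measurable range in NSC. miR-23b-3p had 476 units in NSCL61 and 16.1 units in NSC, at least 6.79-fold higher, and miR-27b-3p had 328 units in NSCL61 and 14.4 units in NSC, at least 4.73-fold higher. The family's median of 2.22 over 3 members measured in both lines compares with −1.03 over all miRNAs.

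Further rises came from single miRNAs. miR-22-3p, at chr11:75463772-75463793, had 4430 ± 141 units in NSCL61 and 251 ± 6.99 units in NSC, a change of 2.19. miR-7a-5p, which represses Egfr and is known to be low in glioblastoma, had 431 ± 15.9 units in NSCL61 and 18.2 ± 3.49 units in NSC, a change of 2.55. It was thus the 1 higher member among 11 measured miRNAs on a textbook list of those lowered in glioma. Of the 11, 5 were lower (2 of them without scaling too), beside 38.8% lower over all measured miRNAs. Without scaling 3 of the 11 were higher and 2 lower. miR-690 had 458 units in NSCL61 and 58.5 units in NSC, a change of 1.02, close to the 2-fold limit. Within the miR-15 and miR-16 family, which restrains the cell cycle, miR-497-5p and miR-195-5p were at least 4.19-fold and 3.1-fold higher, at 291 and 215 units in NSCL61 and 15.5 and 14.0 units in NSC. Their relatives did not count as changed, with changes of −0.45 for miR-15a-5p, −0.48 for miR-16-5p and 0.83 for miR-15b-5p.

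**Figure D2:**
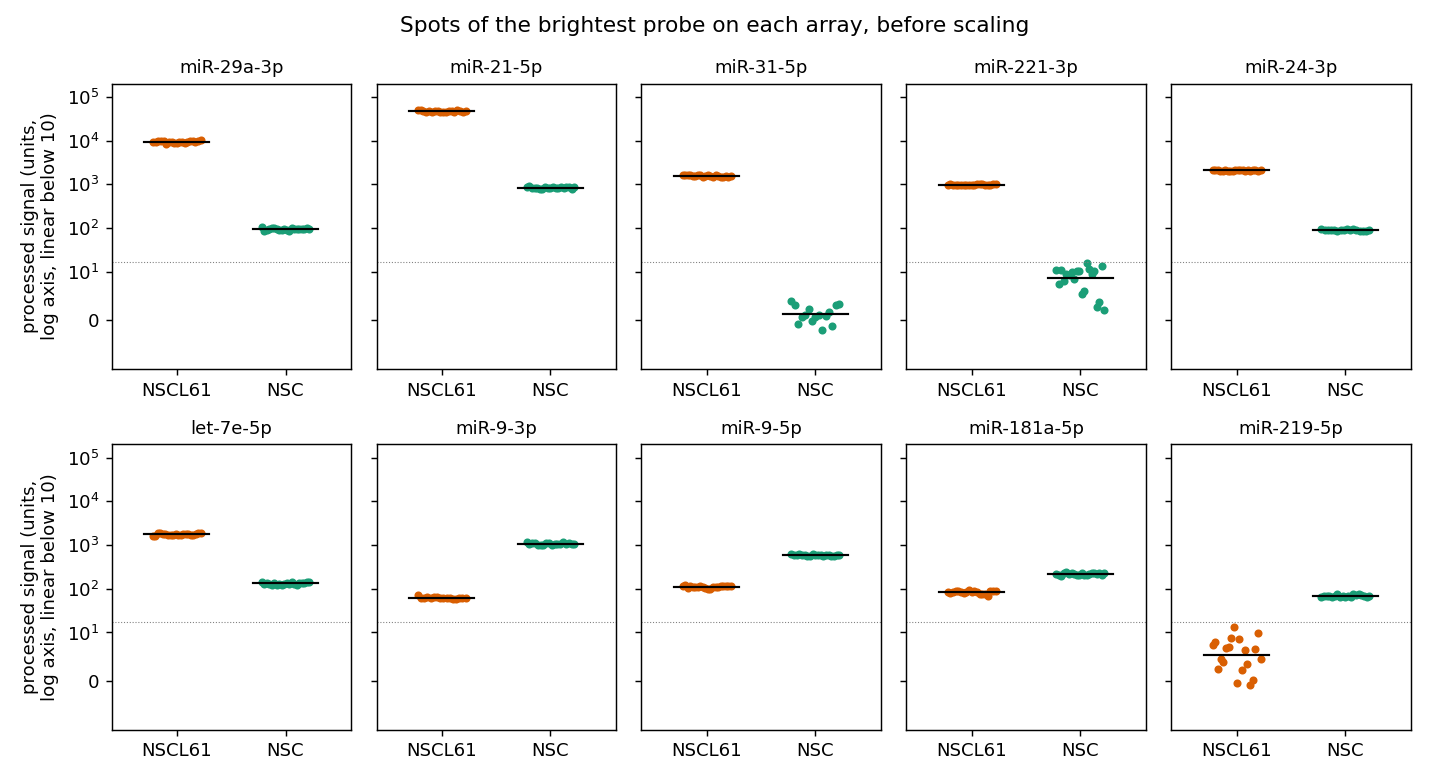
Processed signal, before scaling, of every spot of the brightest probe for 10 miRNAs on the NSCL61 array (left in each panel) and the NSC array (right), with the mean as a black line and a dotted line at 17 units, near the lowest measurable signal. The vertical axis is logarithmic above 10 units and linear below; the spots of the arrays do not overlap in any panel, and those of miR-31-5p and miR-221-3p in NSC and of miR-219-5p in NSCL61 lie below the dotted line.

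Both arms of miR-9, the miRNA that marks neural progenitors and represses Nr2e1 and Hes1, were lower in NSCL61, and miR-9-3p had the largest fall of the miRNAs measured in both lines. miR-9-3p had 62.9 ± 3.18 units in NSCL61 (n = 16), against 1070 ± 51.7 units in NSC (n = 18), a change of −6.04, and of −4.08 without scaling. miR-9-5p had 111 ± 5.99 units in NSCL61 (n = 20), against 591 ± 17.6 units in NSC (n = 19), a change of −4.37, and of −2.42 without scaling. The arms of this hairpin thus changed by unequal amounts, with a difference of 1.67 that no shift of a whole array alters. RefSeq lists 3 copies of miR-9, whose 5p arms lie at chr3:88215613-88215635 in the span of Gm3764, at chr13:83738821-83738843 in the span of C130071C03Rik, and at chr7:79505279-79505301, and the array cannot tell them apart. As the defining marker of the labelled cell type, miR-9 was well above background on the NSC array, and both of its arms were so in NSCL61 too.

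Of 32 miRNAs on a list for neural stem cells and neurons, 12 were measured, 8 were lower and 1, miR-7a-5p, was higher, with a median of −2.15 over the 8 measured in both lines, against −1.03 and 38.8% lower over all. Without scaling 2 were lower and 3 higher, and the median was −0.20. Apart from miR-9, none of these falls passed 2-fold without scaling. miR-124-3p, the most neuron-specific of them, had −1.58 ± 2.11 units in NSCL61 and 32.5 ± 2.99 units in NSC, at least 6.97-fold lower after scaling. miR-128-3p had 26.9 units in NSCL61 and 34.1 units in NSC, a change of −2.30, of which 1.95 was the shift between arrays. miR-129-2-3p had 42.1 units in NSCL61 and 62.5 units in NSC, a change of −2.53, and miR-129-5p had 9.47 units in NSCL61 and 26.8 units in NSC, at least 5.70-fold lower. For miR-132-3p, induced by neuronal activity, signals were 39.9 units in NSCL61 and 41.3 units in NSC, and for miR-138-5p they were 48.6 units in NSCL61 and 27.4 units in NSC. The other members did not count as changed: miR-212-3p, at 148 units in NSCL61 and 33.7 units in NSC (0.19), miR-218-5p, at 116 units in NSCL61 and 1.59 units in NSC, and miR-134-5p, at 19.1 units in NSCL61 and 12.7 units in NSC. Summed over measured members, the list gave 1050 units in NSCL61 and 1940 units in NSC, while the sum over all miRNAs ran the other way. Most of the NSC sum came from miR-9-3p (1070 units) and miR-9-5p (591 units), which had 62.9 and 111 units in NSCL61. Without the miR-9 arms the list's sum was higher in NSCL61, as it was over all miRNAs.

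Of 5 miRNAs on a list for oligodendrocyte differentiation, 2 were measured and both were lower, beside 38.8% lower over all measured miRNAs. miR-219-5p had 5.43 ± 3.67 units in NSCL61 (n = 19), against 68.4 ± 3.38 units in NSC (n = 19), at least 14.7-fold lower and the largest bound of a fall. Its spots ran between −0.851 and 13.1 units in NSCL61, none well above background, and between 63.2 and 74.3 units in NSC. miR-338-3p had 48.5 units in NSCL61 and 37.5 units in NSC, a change of −1.59, and of opposite sign, 0.37, without scaling. In the other lineage miR-219-5p was well above background in neither OPC nor OPCL61, and miR-338-3p was so in OPC only.

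The miR-181 family, which is known to be low in glioma, was lower in 4 of 5 measured members. Over all measured miRNAs 38.8% were lower. miR-181a-5p had 83.4 ± 6.42 units in NSCL61 and 219 ± 11 units in NSC, a change of −3.35. miR-181b-5p had 99.7 ± 7.24 units in NSCL61 and 259 ± 11.2 units in NSC, a change of −3.34, and miR-181d-5p had 26.7 ± 5.29 units in NSCL61 and 68.0 ± 14.1 units in NSC, a change of −3.30. These 3 stayed at least 2-fold lower without scaling, where 6.94% of all measured miRNAs were lower. miR-181c-5p had 11.1 units in NSCL61 and 19.5 units in NSC, at least 4.24-fold lower after scaling. The passenger arm miR-181a-1-3p was measured in NSCL61 only, at 24.2 units, against 9.16 units in NSC. RefSeq places miR-181a and miR-181b side by side at both chr1:137966468-137966673 and chr2:38852741-38853868, the second within the span of Nr6a1, and miR-181d with miR-181c at chr8:84178759-84178945.

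The remaining falls that passed 2-fold under all 5 scalings were mostly of miRNAs with high numbers, which are given in order of annotation and whose functions are less known. miR-3095-3p had 23.2 ± 3.82 units in NSCL61 and 165 ± 7.53 units in NSC, a change of −4.79. miR-2137 had 479 ± 17.8 units in NSCL61 and 1140 ± 20.4 units in NSC, a change of −3.20, and miR-3096-5p had 313 ± 17 units in NSCL61 and 649 ± 32.6 units in NSC, a change of −3.01. miR-1892, miR-714, miR-1839-3p, miR-3082-5p and miR-1940 changed by between −3.69 and −3.22. miR-882 and miR-3472 were measured in NSC only and were at least 9.64-fold and 8.05-fold lower. miR-130b-3p, from a family with roles in growth control, had 34.5 ± 3.50 units in NSCL61 and 79.4 ± 3.35 units in NSC, a change of −3.16.

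**Figure D3:**
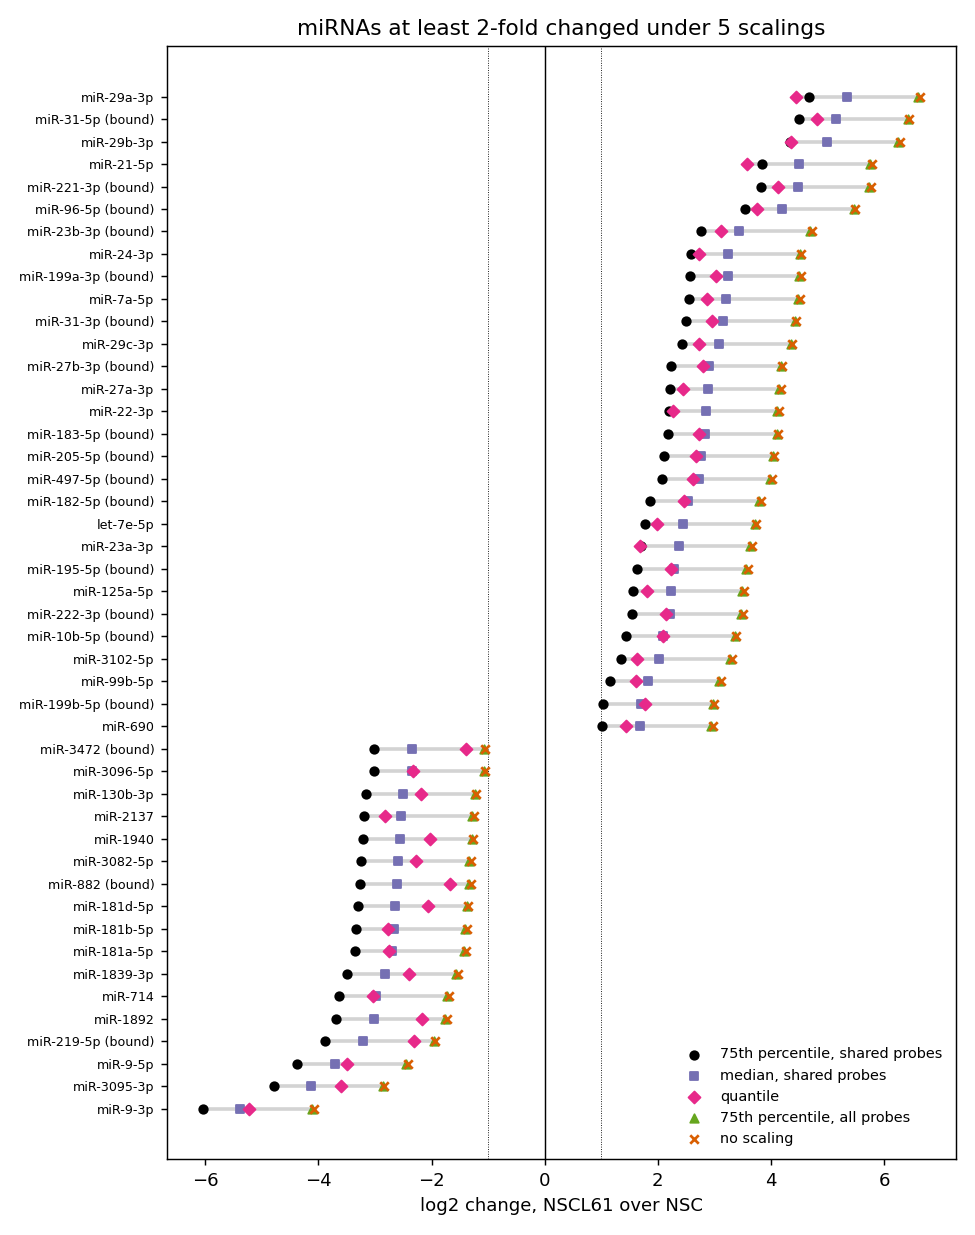
Log2 change, NSCL61 over NSC, of the 29 higher and 17 lower miRNAs under 5 ways of scaling the arrays (symbols); grey bars span the values and dotted lines mark 2-fold. The rises grow and the falls shrink as less is taken off the NSCL61 array, and each stays on its side of its dotted line.

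Neighbouring miRNAs were compared next, since a difference between miRNAs on the same arrays does not hang on the shift between arrays. RefSeq sequences matched 191 of the 245 measured miRNAs, and grouping mature loci within 10 kb gave 27 clusters with members from different hairpins. In 20 of them at least 2 miRNAs were measured in both lines, and 9 of these had members that differed in change by less than 1 log2 unit, while 6 had members that differed by 2 or more. No cluster held both a higher and a lower miRNA after scaling.

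The paralogous loci that hold a miR-99 or miR-100 beside a let-7 went different ways. On chromosome 17, at chr17:17830194-17830876 in the span of Spaca6, miR-99b-5p (1.15), let-7e-5p (1.78) and miR-125a-5p (1.56) were all higher. let-7e-5p had 1760 ± 83.7 units in NSCL61 and 132 ± 7.20 units in NSC, miR-125a-5p had 1220 ± 50.1 units in NSCL61 and 107 ± 4.53 units in NSC, and miR-99b-5p had 385 ± 11.6 units in NSCL61 and 44.8 ± 3.27 units in NSC. On chromosome 16, at chr16:77598940-77599693, miR-99a-5p (−1.98) and let-7c-5p (−1.0) were lower after scaling, and at −0.02 and 0.95 without. miR-99a-5p had 155 ± 4.49 units in NSCL61 and 158 ± 8.36 units in NSC, and let-7c-5p, which has a further copy on chromosome 15, had 2460 ± 92.3 units in NSCL61 and 1270 ± 56.8 units in NSC. The other relatives lay between, with changes of 0.18 for miR-100-5p, 0.48 for miR-125b-5p and −0.03 for let-7a-5p. miR-99 and miR-100 are known to repress Mtor, and miR-125 is the relative of the Caenorhabditis elegans lin-4. The change of miR-99a-5p was 3.13 below that of miR-99b-5p.

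The members of some clusters differed in change. In the miR-17 to miR-92a cluster on chromosome 14, which promotes proliferation, changes ran between −1.71 for miR-92a-3p and 0.69 for miR-18a-5p. miR-92a-3p, which has a further copy on chromosome X, had 858 ± 33.0 units in NSCL61 and 724 ± 24.6 units in NSC, and miR-18a-5p had 147 ± 9.03 units in NSCL61 and 23.8 ± 2.96 units in NSC. In the related cluster in the span of Mcm7 on chromosome 5, miR-93-5p changed by −1.13, miR-25-3p by −0.13 and miR-106b-5p by 0.20. miR-132-3p and miR-212-3p, neighbours on chromosome 11, changed by −2.01 and 0.19, although they have the same seed. miR-193b-3p and miR-365-3p on chromosome 16 changed by −1.78 and 0.79. Both lay near the lowest measurable signal in NSC, at 22.7 units for miR-193b-3p and 18.5 units for miR-365-3p. On chromosome X, in the span of Clcn5, miR-188-5p changed by −2.19 and miR-500-3p by 0.96. miR-500-3p also lay near the lowest measurable signal in NSC. Under normexp the changes of miR-365-3p and miR-500-3p turned negative, so the sizes of both gaps are uncertain.

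**Figure D4:**
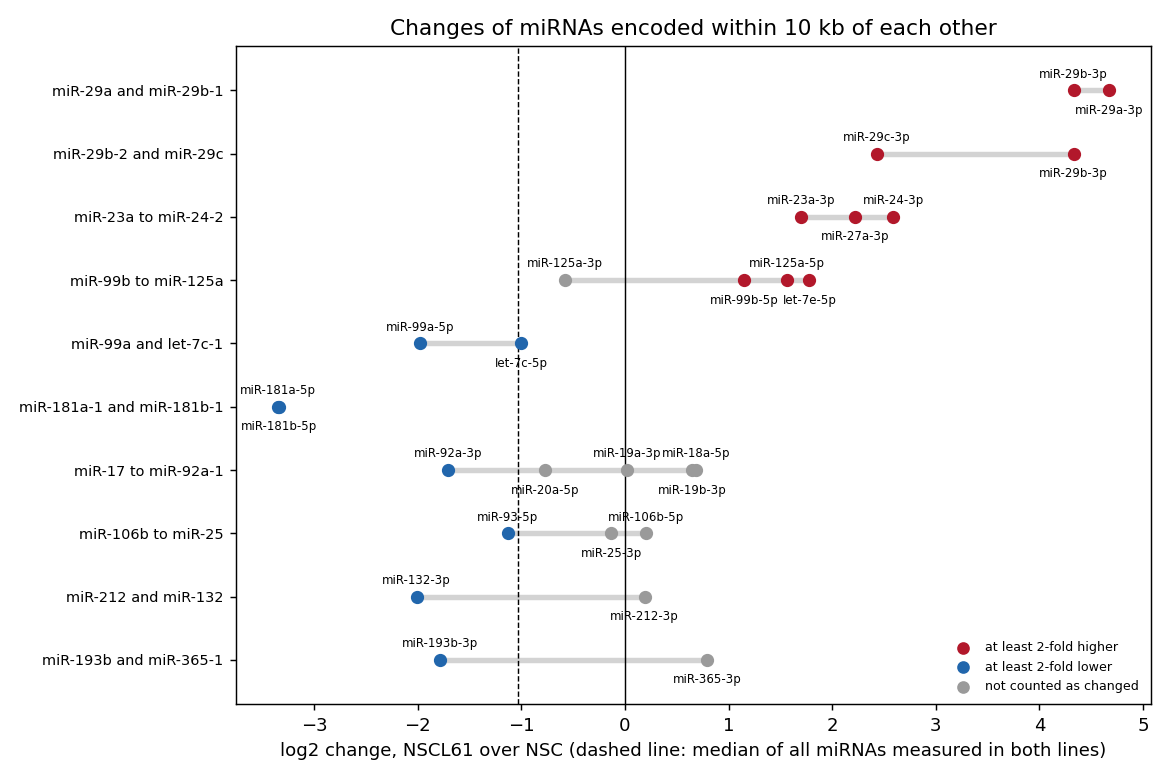
Log2 change, NSCL61 over NSC, of miRNAs measured in both lines in 10 genomic clusters (rows), coloured by whether they counted as changed; the dashed line is the median over all 153 miRNAs, −1.03. Members of the miR-23a and miR-181a-1 clusters lie close together, while those of the miR-17, miR-212 and miR-193b clusters spread over more than 2 log2 units. In NSC, miR-193b-3p and miR-365-3p of the miR-193b cluster lay near the lowest measurable signal.

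Changes also differed among miRNAs with a shared seed. The measured miRNAs held 21 seeds that occur more than once, 14 of them with at least 2 miRNAs measured in both lines. Of these 14, 4 had changes within 1 log2 unit of each other and 5 differed by 2 or more. The seeds GAGGUAG of let-7 and ACCCGUA of miR-99 and miR-100 each had both a higher and a lower member after scaling. Without scaling neither seed had a lower one, since let-7c-5p came to 0.95 and miR-99a-5p to −0.02. The let-7 family, which represses Hmga2 and Ras genes, had 11 measured members, with 1 higher, 2 lower and a median of −0.51. Over all measured miRNAs 11.8% were higher and 38.8% lower. Without scaling the family had 8 higher, 0 lower and a median of 1.44, beside 49.0% higher and 6.94% lower over all. let-7e-5p differs from let-7a-5p by the single substitution U9G, counted from the 5′ end, and its change was 1.81 above that of let-7a-5p. miR-29c-3p differs from miR-29a-3p by C10U, and its change was 2.25 below. By contrast, miR-181d-5p differs from miR-181b-5p by C12U and an end base, and their changes differed by 0.03. miR-130a-3p differs from miR-130b-3p at 2 bases and changed by −0.53, which is 2.63 above miR-130b-3p. Values of members this alike are uncertain, because a probe may bind more than 1 of them.

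Arms of the same hairpin were measured for 26 hairpins, and none had arms that counted as changed in opposite ways. In 5 hairpins both arms counted as changed the same way, in miR-9, miR-31, miR-328, miR-466i and miR-712, and in 11 hairpins 1 arm did. Where both arms were measured in both lines, the arms of miR-652 differed in change by 0.12, those of miR-466i by −0.27, those of miR-149 by 1.01, those of miR-9 by 1.67 and those of miR-125a by 2.14 (5p arm minus 3p arm). The probes of miR-125a-3p disagreed with each other by over 1 log2 unit, the 1 such case among 105 miRNAs with several probes, whose median disagreement was 0.10. The hairpin of miR-3102, in the span of Arhgef17 on chromosome 7, gave neighbouring products that went opposite ways. miR-3102-5p, at chr7:100882388-100882409, had 1110 ± 19.5 units in NSCL61 and 112 ± 7.71 units in NSC, a change of 1.35. miR-3102-5p.2-5p, at chr7:100882367-100882387, had 25.9 ± 4.16 units in NSCL61 and 45.6 ± 5.02 units in NSC, a change of −2.77, and of −0.82 without scaling.

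Markers of other cell types were set beside these results. Of 9 mesenchymal miRNAs, 4 were measured, all in NSCL61 only, with a summed signal of 774 units in NSCL61. Among all 245 measured miRNAs, 75 were measured in NSCL61 only and 17 in NSC only. miR-199a-3p had 413 ± 9.37 units in NSCL61 and 4.95 ± 3.16 units in NSC, at least 5.95-fold higher, and miR-199b-5p had 143 ± 8.04 units in NSCL61 and 4.47 ± 2.24 units in NSC, at least 2.06-fold higher. miR-199a-5p at 134 units and miR-214-3p at 84.0 units in NSCL61 did not reach a 2-fold bound, and miR-143 and miR-145, the smooth muscle members of the list, were not above background in either line. Of 14 epithelial miRNAs, miR-205-5p alone was measured, with 299 ± 8.66 units in NSCL61 and −0.269 ± 3.34 units in NSC, at least 4.30-fold higher, while the miR-200 members were not above background. The blood and microglial list had 1 of 15 measured, miR-155-5p, at 74.0 units in NSCL61 and 18.7 units in NSC. The endothelial miR-126-3p was at 25.9 units in NSCL61 and 2.44 units in NSC, and no muscle, hepatocyte or endocrine marker was measured. The part of such cells in the rises was not tested.

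Further families had no member that counted as higher after scaling. The miR-30 family had 5 measured members, 2 of them lower, near the 38.8% lower over all measured miRNAs. Its median was −0.94 (3 higher, 0 lower and 1.02 without scaling). The miR-26 family and the miR-322 and miR-503 cluster had none counted as changed among 2 and 5. miR-34b-5p (−1.68) and miR-34c-5p (−1.33), which p53 induces, were both lower after scaling, at 23.5 and 32.6 units in NSCL61 and 18.7 and 21.1 units in NSC, where the unscaled signals run the other way. Of 82 miRNAs on a list, by name, for the imprinted Dlk1-Dio3 cluster, miR-494-3p and miR-487b-3p were measured and neither counted as changed. RefSeq places 4 further measured miRNAs, which the list left out, in the same stretch of chromosome 12. Of these miR-882 and miR-3072-5p were lower, at 0.788 and 134 units in NSCL61 and 45.1 and 178 units in NSC, and the fall of miR-882 is among the 17 that passed 2-fold under all 5 scalings. miR-134-5p and miR-1906, the second in the span of Meg3, were measured in NSCL61 only and did not count as changed. A group chosen by name, with miR-466 and miR-669 and also miR-297 and miR-467, had 15 measured of 60. Of the 15, 7 were lower, not far from the 38.8% over all measured miRNAs, and the median was −2.69 over the 6 measured in both lines. Without scaling 4 of its members were higher, 0 were lower and the median was −0.73.

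Changes after scaling were also set out by base composition and by the order of annotation. Among miRNAs measured in both lines, 45 with a GC content of at least 55% had a median of −1.45, with 2 higher and 32 lower. The 37 between 45% and 55% had a median of −0.48, and the 42 under 45% had −0.45, with 6 higher and 13 lower in each group. Without scaling the medians were 0.50 for a GC content of at least 55%, 1.48 between 45% and 55% and 1.51 under 45%, and the counts of lower miRNAs were 2, 5 and 3, so the uneven counts of lower miRNAs hang on the scaling, while a shift of a whole array leaves the gap between medians nearly as it was. The 32 miRNAs with a number of at least 1800 had a median of −1.78, with 1 higher, miR-3102-5p, and 22 lower (7 without scaling), and a median GC content of 66.7%. Among the 99 with a number under 600 the median was −0.61, with 12 higher and 43 lower (6 without scaling), and the 19 of these that also had a GC content of at least 55% had −1.30. Across the 124 miRNAs with a sequence, GC content and change had a Spearman rho of −0.26 and a Pearson r of −0.24, as a description of miRNAs on a shared pair of arrays.

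**Figure D5:**
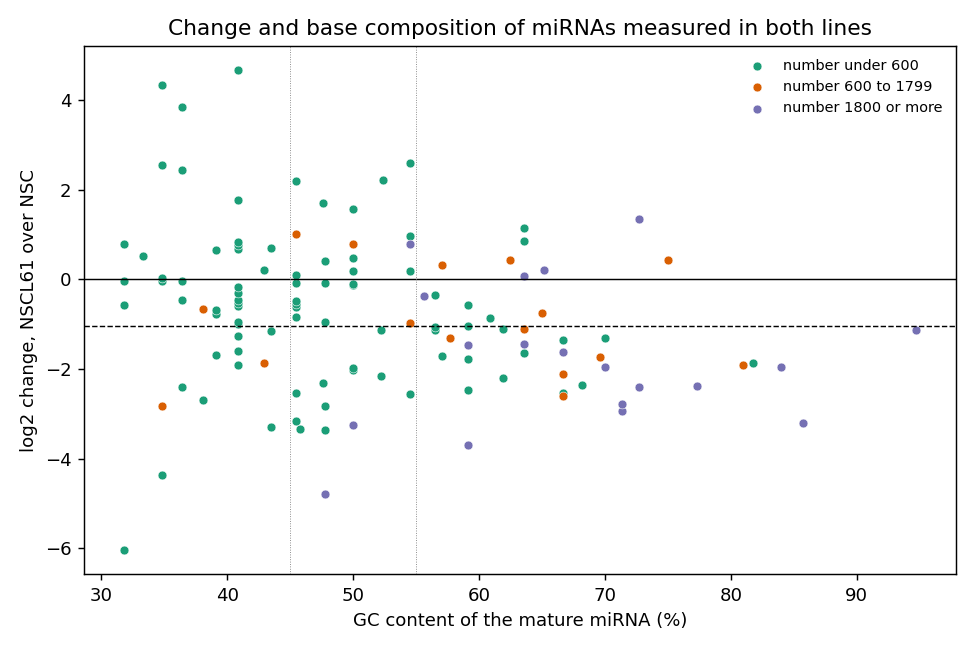
Log2 change, NSCL61 over NSC, against GC content for the 124 miRNAs measured in both lines that have a RefSeq sequence, coloured by the number in the miRNA's name; the dashed line is the median over all 153, −1.03, and dotted lines mark 45% and 55%. Points at a GC content of 55% or more lie mostly below 0 under this scaling.

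The OPCL61 and OPC arrays gave values for the same miRNAs in another lineage. Of the 29 higher miRNAs, 28 were measured there, and 11 were higher and 1 was lower in OPCL61 than in OPC, against 14.5% and 20.6% of all 214 miRNAs measured there. Of the 17 lower ones, 14 were measured, with 3 higher and 7 lower. Of the miR-29 family, miR-29a-3p (1.94, OPCL61 over OPC) and miR-29b-3p (2.26) were higher there too, while miR-29c-3p had a bound of 0.75 and did not count as changed, and miR-29b-1-5p was not measured. miR-9-3p was lower there too, below background in OPCL61, with a bound of −6.01. miR-31-5p, miR-21-5p and miR-221-3p were also higher there, at 2.15 (a bound), 2.73 and 1.13. No difference between the lineages was tested, with 1 array per line.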

How the data were processed

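The members and miRNA lists were chosen with earlier results of these data known. Per the labels' protocols, 100 ng of total RNA per array, taken with TRIzol, was labelled with Cy3 and hybridised to 1-colour Agilent mouse miRNA arrays. Per the submitters' processing notes, the scanner software was Agilent Feature Extraction, version 10.7.3.1. Per the file headers, deposited processed signal intensity had been background-subtracted and detrended, without normalization across arrays. Per the file headers all arrays came from 1 slide and 1 scan. The authors' deposited table of intensity values for the series matched the scanner values exactly. Per the file headers, flags with a score of 0 or 1 mark spots as outliers, saturated or well above background. No mouse miRNA spot was saturated, and 1927 and 2005 outlier spots were left out on the NSCL61 and NSC arrays.

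Of 45364 spots per array, 40920 belonged to 2645 probes for 1023 mouse miRNAs. Scaling used the 75th percentile, on each array, of 182 probes well above background on all 4 arrays. Before scaling, lower signals were set to the lowest signal well above background (17.34 units for NSCL61 and 17.0 units for NSC), and log2 was taken. Detection of a probe required the flag on 50% or more of its spots. A miRNA was detected when any of its probes was, and its brightest probe gave its level. The median SD over spots was 0.09 and 0.10 on the log2 scale, and the number of arrays, 1 per line, limits the precision. Calls needed a 2-fold change and, where both lines were well above background, more than 2 spot standard errors. The steps were tested on simulated data built from NSC levels with a uniform shift between arrays. That run used median scaling, so the 75th percentile scaling was not tested. Python 3.11.15 with pandas 2.3.3 and numpy 2.4.6 was used, with scipy 1.17.1 for correlations, and normexp came from limma 3.58.1 in R 4.3.3.

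Named were, by rule, all miRNAs called under 5 scalings, the 10 largest rises and falls and 5 largest bounds each way, called and bright list members, hairpins with both arms measured and clusters. The text gives values for part of these, and names miRNAs in family and cluster comparisons beyond the rule, chosen after their values were seen. Of 245 measured miRNAs, 191 matched RefSeq, 10 of them through a synonym checked against the probe. The strand of genes spanning a locus was not compared. The 29 lists, 9 of them of cell type markers, follow textbook use and overlap. The 13 alternatives changed scaling, background correction, floor, detection, probe choice and outlier spots.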

Additional observations from a re-analysis of the deposited data

Results flagged for a closer look

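10 miRNAs counted as changed in opposite directions in the comparison of NSCL61 with NSC and in that of OPCL61 with OPC. These differences were not tested, since each line has 1 array. For 9 of them NSCL61 was lower than NSC while OPCL61 was higher than OPC. Given as the log2 change of NSCL61 over NSC minus that of OPCL61 over OPC, the differences were −5.28 for miR-2137 (−3.20 and 2.07), −4.72 for miR-714 (−3.64 and 1.08) and −4.43 for miR-1940 (−3.22 and 1.22). They were −3.81 for miR-1224-5p (−2.60 and 1.2), −3.76 for miR-211-3p (−2.54 and 1.21) and −3.67 for miR-188-5p (−2.19 and 1.49). They were −3.41 for miR-1895 (−2.40 and 1.01), −3.31 for miR-149-3p (−1.87 and 1.44) and −2.64 for miR-2861 (−1.12 and 1.52). For miR-23b-3p the difference was 3.92, from a bound of 2.76 in NSCL61 over NSC and −1.16 in OPCL61 over OPC. Without scaling, 3 of the 10 stayed at least 2-fold changed in opposite directions: miR-2137 (−1.25 and 3.75), miR-714 (−1.69 and 2.76) and miR-1940 (−1.26 and 2.90). The other 7 did not. NSCL61 over NSC fell within 2-fold for miR-1224-5p (−0.65), miR-211-3p (−0.59), miR-1895 (−0.45), miR-188-5p (−0.23), miR-149-3p (0.09) and miR-2861 (0.84), while miR-23b-3p had changes above 0 in both (4.72 and 0.52).

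The arrays also carry probes for 57 viral miRNAs, which no comparison used. 6 of these viral miRNAs were well above background on the NSCL61 array, with signals between 17.3 and 134 units, and 4 on the NSC array, with signals between 20.4 and 66 units. The median of the negative control spots was 3.29 units on the NSCL61 array and 3.02 units on the NSC array. 3 of the viral miRNAs were well above background on both arrays.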

How the results depend on the processing

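With 1 array per line, the error is that of spots, and culture and line cannot be told apart; signals under about 17 units limit the rest. No paired analysis was possible because each group has 1 array. Under all 13 alternatives 14 of the 29 higher miRNAs and 17 of the 95 lower ones still counted. The number of higher miRNAs was 120 without scaling, 118 with the 75th percentile over all probes, 65 with the positive control probes, 49 with the median, 45 with quantile normalization, 44 with the 75th percentile over probes measured in both lines and 14 with normexp. The number of lower ones was 60 with the positive controls, 57 after quantile normalization, 19 over all probes and 17 with no scaling. The median change of −1.03 became 0.93 without scaling and 0.90 over all probes, −0.06 with the positive controls, −0.36 with the median and with quantile normalization, and −0.61 over probes measured in both lines. It was −0.66 when all spots of a probe had to be well above background and −0.85 when any spot sufficed. Apart from quantile normalization, the scalings differ only in the shift between arrays, and for the other alternatives the cause was not tested. There were 34 lower miRNAs with a change above 0 without scaling. Among them, with the value over all probes second, were let-7c-5p (0.95 and 0.92), miR-138-5p (0.83 and 0.80), miR-149-3p (0.09 and 0.06), miR-193b-3p (0.18 and 0.15) and miR-2861 (0.84 and 0.81). So were miR-338-3p (0.37 and 0.34), miR-34b-5p (0.28 and 0.25), miR-34c-5p (0.63 and 0.60), miR-92a-3p (0.25 and 0.22) and miR-93-5p (0.83 and 0.80). Under normexp miR-365-3p came to −0.46 and miR-500-3p to −0.36, against 0.79 and 0.96.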

Other observations

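The positive control probes on the arrays did not share a single difference between the lines. Before scaling, the log2 difference of NSCL61 over NSC was 1.86 for hur_6, 1.67 for hur_4, 1.30 for hur_2, 0.50 for hur_1 and −0.39 for mr_1. The signal of mr_1 was 3570 units on the NSCL61 array and 4850 units on the NSC array, and that of hur_2 was 140000 units on the NSCL61 array and 57100 units on the NSC array. Probes named dmr lay between −2.0 and 3.40 units on the NSCL61 array and between −2.36 and 4.47 units on the NSC array. The file headers give the labelling spike-in signal as out of range on both arrays.

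Of the 75 miRNAs measured in NSCL61 only, 60 did not reach a 2-fold bound after scaling, among them both arms of miR-140, miR-362 and miR-467a. Both arms of miR-17 were also measured in NSCL61 only, miR-17-5p at 22.6 units against 6.83 units in NSC and miR-17-3p at 82.4 units against 16.7 units in NSC.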
